A study of Vigna unguiculata with 30 samples.

Results

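The genes described here are short gene models of cowpea (Vigna unguiculata) that lie on the 11 chromosomes and have no intron. A model was taken where it sat on 1 of the chromosomes, had exactly 1 exon, was at most 500 bases long and averaged at least 1 CPM (the gene's counts per 1000000 counts of the library) over 30 leaf libraries. Of the 31948 gene models in the table, 5204 on chromosomes had 1 exon, 1046 of these were at most 500 bases long, and 180 met every condition. Another 866 short intronless models fell below 1 CPM, of which 401 had 0 counts in every library. Levels entered the choice through this mean over all libraries, so a gene high in 1 position or stage alone could pass. Of the 180 members, 25 would fall below 1 CPM with 1 position or 1 stage left out: 10 without top leaves, 2 without middle leaves, 13 without bottom leaves, 4 without R1 and 11 without R3. Differences between groups helped to choose these 25, so those named below are described with no test.

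Short intronless genes of plants are known to include small families whose members often stand side by side, such as the auxin-responsive SAUR genes, histone genes and genes of small secreted peptides. Short models with 1 exon can also be pieces of longer transcripts, remnants of transposable elements or untested predictions, which an annotation does not separate from them. Along a legume canopy, leaves at the top are the youngest and receive the most light, while those at the bottom are older and shaded. Gene models are given by the identifiers of the count table; 0 of them matched a gene of the RefSeq table used here (assembly ASM411807v2), so none carries a name or a role in what follows.

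Leaf material came from cowpea line IT97K-499-35, the single genotype of the study, grown in the ground of a greenhouse with supplemental light. RNA was sampled from bottom, middle and top leaves of the canopy at stage R1 (5.5 weeks after planting) and stage R3 (6.5 weeks), with 5 libraries of polyA RNA in each of these 6 groups. The labels call the replicates biological and do not say whether each came from its own plant, so p-values measure the spread between these samples, which may be technical in part. The sources used here name no genome build, and coordinates are those of the count table (annotation version 1.2). Libraries held between 10490354 and 17420944 counts, and the 180 members together took 22552 to 46065 of them, or 0.196% to 0.285% of a library.

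The members were between 96 and 499 bases long, with a median of 325.5. Model lengths were multiples of 3 in 169 of the 180 members (93.9%), against 45.2% of all gene models, 43.1% of the 1915 longer intronless models at 1 CPM or more and 35.4% of the 16501 models with introns at that level. The share was 93.3% in the 866 short intronless models below 1 CPM, so it is not particular to the members. Lengths of these 169 may be coding lengths, which was not tested. Reads from outside a model would not be counted in it. The other 11 have lengths that cannot be whole codons, and what they hold was not examined. There were 44 members of at most 200 bases and 45 of more than 400. Plus and minus strands held 84 and 96 of them.

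Most members were weakly expressed. Their mean level had a median of 3.73 CPM, with 73 members at 5 CPM or more, 44 at 10 or more and 5 at 100 or more. Per kilobase of model, which allows genes of different length to be compared, the median was 14.4 CPM per kb. It was 5.33 CPM per kb in longer intronless models and 9.59 in models with introns, but the minimum of 1 CPM is a higher minimum per kb for a shorter model, so the rule itself sets part of this difference. Within the members, the 44 of at most 200 bases had a median of 29.3 CPM per kb and the 45 of more than 400 bases 10.0 CPM per kb, a comparison that carries the same effect. On either side of the level limit stood Vigun11g048050 (1.01 CPM) and Vigun11g017850 (1.02 CPM) inside and Vigun03g007550 (0.989 CPM) and Vigun07g005700 (0.988 CPM) outside. At the length limit, Vigun09g271700 (499 bases, 3.73 CPM) and Vigun01g187600 (496 bases, 13.7 CPM) were inside, and Vigun05g155900 (35.6 CPM) and Vigun07g135800 (2.69 CPM), both of 501 bases, outside.

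Levels below are CPM on library sizes scaled by TMM, as mean ± SD over the 5 libraries of a group, and lists of 5 values run from replicate 1 to replicate 5. Differences come from 1 quasi-likelihood fit in edgeR over all libraries, with p-values adjusted by Benjamini-Hochberg over the 20284 genes that passed the filter on low counts; all 180 members passed it. A gene is called at an adjusted p under 0.05, and a log2 difference (the log2 fold change of the first group named over the second) of 1 is a doubling. In whole leaf tissue, fewer cells of a type and less RNA per cell cannot be told apart.

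**Figure D1:**
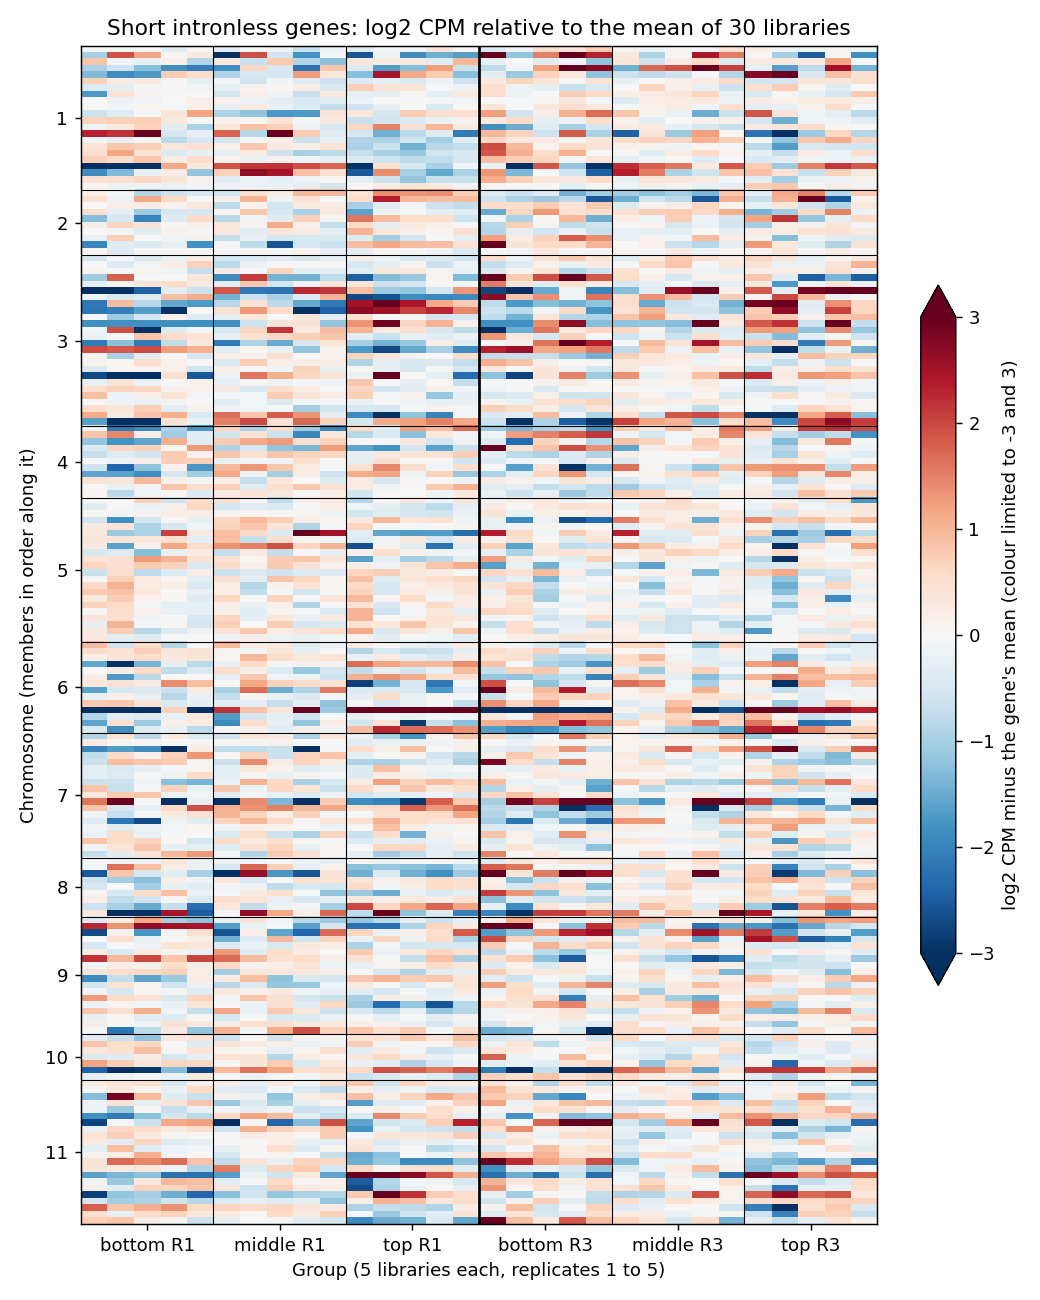
Heat map of the 180 members (rows, in order along each chromosome) in 30 libraries (columns, 5 per group). Colour gives log2 CPM minus the mean of the gene over all libraries, and white bands such as the one on chromosome 5 mark members whose colour stayed near the mean. Single libraries still differed there, as for Vigun05g292870 (0.256 to 2.79 CPM).

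The most abundant members per kb did not share a pattern over the canopy. Vigun06g037900 (chromosome 6, 15474030 to 15474227, minus strand, 198 bases) had the highest mean, 851 CPM per kb. At R1 its level was 227, 212, 262, 200.1 and 215 CPM in bottom leaves, 169, 154, 204, 134 and 157 CPM in middle leaves and 86.6, 114, 97.2, 102 and 130.2 CPM in top leaves. The ranges of bottom and top leaves did not overlap (log2 difference -1.08 with SE 0.16, adjusted p = 2.4e-05), and at R3 it was lower at the top again, with overlapping ranges (log2 difference -0.68 with SE 0.16, adjusted p = 0.001).

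Vigun04g203600 (chromosome 4, 42616952 to 42617413, plus strand, 462 bases) was second at 547 CPM per kb. It stood at 211 ± 49.5, 291 ± 30.7 and 237 ± 48.3 CPM from bottom to top at R1, where top versus bottom gave a log2 fold change of 0.17 (adjusted p = 0.6). At R3 the values were 213, 157, 198, 112 and 145 CPM in bottom leaves and 293, 164, 457, 333 and 423 CPM in top leaves. All but 1 of the top libraries lay above the highest bottom library, and the member rose (log2 difference 1.02 with SE 0.24, adjusted p = 0.0013). Vigun06g219300, described below, ranked next with 534 CPM per kb.

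Vigun07g056500 (chromosome 7, 6222231 to 6222416, minus strand, 186 bases), at 467 CPM per kb, had the most even level among members of at least 5 CPM. Its group means lay between 77.8 and 91.4 CPM, a ratio of highest to lowest of 1.17, and it was called in none of the 9 comparisons of 2 groups. Vigun02g169200 (chromosome 2, 31243867 to 31244310, minus strand, 444 bases) came next with a ratio of 1.22, from 36.5 ± 5.08 CPM in top leaves at R1 to 44.4 ± 4.86 CPM in top leaves at R3. These 2 members were selected for their small ratio, so their evenness is a description.

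At R1, 66 of the 180 members differed between top and bottom leaves, 36.7% against 43.0% of all genes tested. There were 30 members higher at the top (16.7%, against 22.2% of all genes) and 36 lower (20%, against 20.8%). Of the 66, 49 differed at least 2-fold (27.2% of members, against 22.7% of all genes), and in 39 the ranges of the groups did not overlap (background 27.5%). The median log2 fold change of the members was -0.05, beside 0.01 over all genes, and their median standard error was 0.36, beside 0.26. Among the 155 members that stay at 1 CPM without any 1 position or stage, 56 were called (36.1%, against 42.2% of the 17770 genes that meet the same condition). Scaling by library size in place of TMM gave 24 higher members and 47 lower ones, and shifted the median over all genes by -0.15.

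At R3, 67 members differed between top and bottom leaves, 37.2% against 51.9% of all genes. The split was 33 higher (18.3%, against 26.1%) and 34 lower (18.9%, against 25.8%). At least 2-fold differences were found in 45 of them (25.0%, against 29.5%), and 31 had ranges that did not overlap (background 27.5%). The median log2 fold change was -0.15, beside -0.02 over all genes. Of the 155 members that do not need 1 position or stage, 55 were called (35.5%, against 51.6% of the genes that meet the same condition). Without TMM the split was 26 higher against 61 lower, at a shift of -0.31 in the median over all genes, so the balance between higher and lower members depends on the scaling.

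Vigun06g219300 (chromosome 6, 32985796 to 32986131, plus strand, 336 bases) showed the steepest rise among called members of at least 5 CPM at either stage. At R1 it was at 0.414, 0.806, 0.453, 23.9 and 0.632 CPM in bottom leaves, 66.6, 26.7, 19.4, 133 and 6.83 CPM in middle leaves and 1004, 828, 566, 553 and 129 CPM in top leaves. Bottom replicate 4 stood far above the other bottom libraries and within the range of the middle ones. At R3 bottom leaves were at 0.494, 0.259, 0.255, 0.255 and 0.0706 CPM, middle leaves at 16.3, 11.4, 32.3, 0.208 and 2.28 CPM and top leaves at 668, 1240.2, 87.4, 92.6 and 75.5 CPM. Every top library exceeded every bottom library at both stages, while the top libraries of R3 themselves ranged over more than 10-fold. Top leaves were higher at R1 (log2 difference 6.89 with SE 1.33, adjusted p = 0.00026) and at R3 (log2 difference 10.64 with SE 1.63, adjusted p = 1.1e-05). Without bottom replicate 4 the R1 value was 10.01, and without top replicate 2 the R3 value was 9.74. Top leaves also exceeded middle leaves at R3 without overlap (log2 difference 5.11 with SE 1.22, adjusted p = 0.02). The call ended without middle R3 replicates 4 and 5 and top R3 replicate 2 (adjusted p = 0.055 to 0.081) and when only these groups were fitted (adjusted p = 0.13); without middle replicate 3 the value was 5.84.

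Vigun06g162650 (chromosome 6, 28518870 to 28519223, minus strand, 354 bases) was higher at the top with less spread. It was at 4.36, 4.19, 5.29, 5.76 and 2.33 CPM in bottom leaves at R3, 16.3, 12.4, 8.13, 3.96 and 6.13 CPM in middle leaves and 20.1, 28.2, 18.5, 18.4 and 19.3 CPM in top leaves. Middle leaves overlapped bottom leaves, and top leaves lay above both (log2 difference 2.25 with SE 0.36, adjusted p = 2.1e-05). At R1 bottom and top leaves were at 7.89 ± 3.56 and 19.1 ± 4.95 CPM, again without overlap (log2 difference 1.27 with SE 0.35, adjusted p = 0.0052).

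Vigun11g186100 (chromosome 11, 38661166 to 38661426, plus strand, 261 bases) stood at 13.3, 9.30, 9.81, 12.5 and 10.5 CPM in bottom, 14.4, 16.1, 14.6, 15.8 and 8.37 CPM in middle and 21.6, 39.3, 35.9, 23.9 and 27.8 CPM in top leaves at R1. The top libraries lay above all others of that stage (log2 difference 1.42 with SE 0.24, adjusted p = 6.4e-05; top versus middle, 1.10, adjusted p = 0.0078). At R3 bottom leaves were at 18.4 ± 8.53 and top leaves at 29.2 ± 1.49 CPM, with overlapping ranges and a log2 fold change of 0.67 (adjusted p = 0.018). That call ended without bottom R3 replicates 1 and 5 (adjusted p = 0.057 to 0.061), and with library size alone (adjusted p = 0.18) or the groups alone (adjusted p = 0.061).

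Among lower members, Vigun03g113600 (chromosome 3, 10429798 to 10430281, plus strand, 484 bases) fell furthest at R1 among called members of at least 5 CPM with separate ranges. Bottom leaves were at 11.6, 9.23, 9.74, 24 and 27.7 CPM, middle leaves at 4.66, 8.02, 6.41, 9.54 and 26 CPM and top leaves at 1.83, 1.98, 3.45, 3.20 and 3.31 CPM. No top library reached the lowest middle or bottom library (log2 difference -2.57 with SE 0.55, adjusted p = 0.00065). At R3 the top libraries were at 13.5, 50.7, 25.4, 11.1 and 12.8 CPM and overlapped the bottom ones (adjusted p = 0.22), and every R3 top library lay above every R1 top library (log2 difference 3.03 with SE 0.56, adjusted p = 0.0065). The test of whether this difference changed with stage had an adjusted p = 0.23, so the stages are not shown to differ in this respect. At R1 the fall from middle to top leaves was called too (log2 difference -1.98 with SE 0.54, adjusted p = 0.021). This call ended without middle R1 replicate 5 and top R1 replicates 1 and 2 (adjusted p = 0.057 to 0.094); without middle replicate 5 the value was -1.37.

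Vigun01g172500 (chromosome 1, 35482176 to 35482514, plus strand, 339 bases) and Vigun04g034000 (chromosome 4, 2822980 to 2823195, plus strand, 216 bases) were lower at the top at both stages without overlap. Vigun01g172500 was at 77.3, 101, 96.7, 73.0 and 77.8 CPM in bottom and 29.4, 36.7, 21.4, 32.5 and 34.7 CPM in top leaves at R1, with middle leaves (64.1, 101, 69.6, 66.1 and 78.4 CPM) close to the bottom ones. It fell by 1.46 on the log2 scale from bottom to top (SE 0.26, adjusted p = 0.00011) and by 1.29 from middle to top (SE 0.26, adjusted p = 0.0058). At R3 bottom leaves were at 227, 114, 62.1, 87.3 and 77.4 CPM and top leaves at 33.7, 17.9, 41.2, 39.7 and 39.7 CPM (log2 difference -1.72 with SE 0.26, adjusted p = 9.2e-06). Vigun04g034000 was at 5.91 ± 2.63 against 1.70 ± 0.759 CPM at R1 (log2 difference -1.79 with SE 0.55, adjusted p = 0.01). At R3 the means were 15.6 ± 13.9 against 3.34 ± 0.803 CPM (log2 difference -2.21 with SE 0.54, adjusted p = 0.0014). Bottom replicate 1 at R3, at 39.5 CPM, was the highest of its 30 libraries, and without it the R3 value was -1.52.

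**Figure D2:**
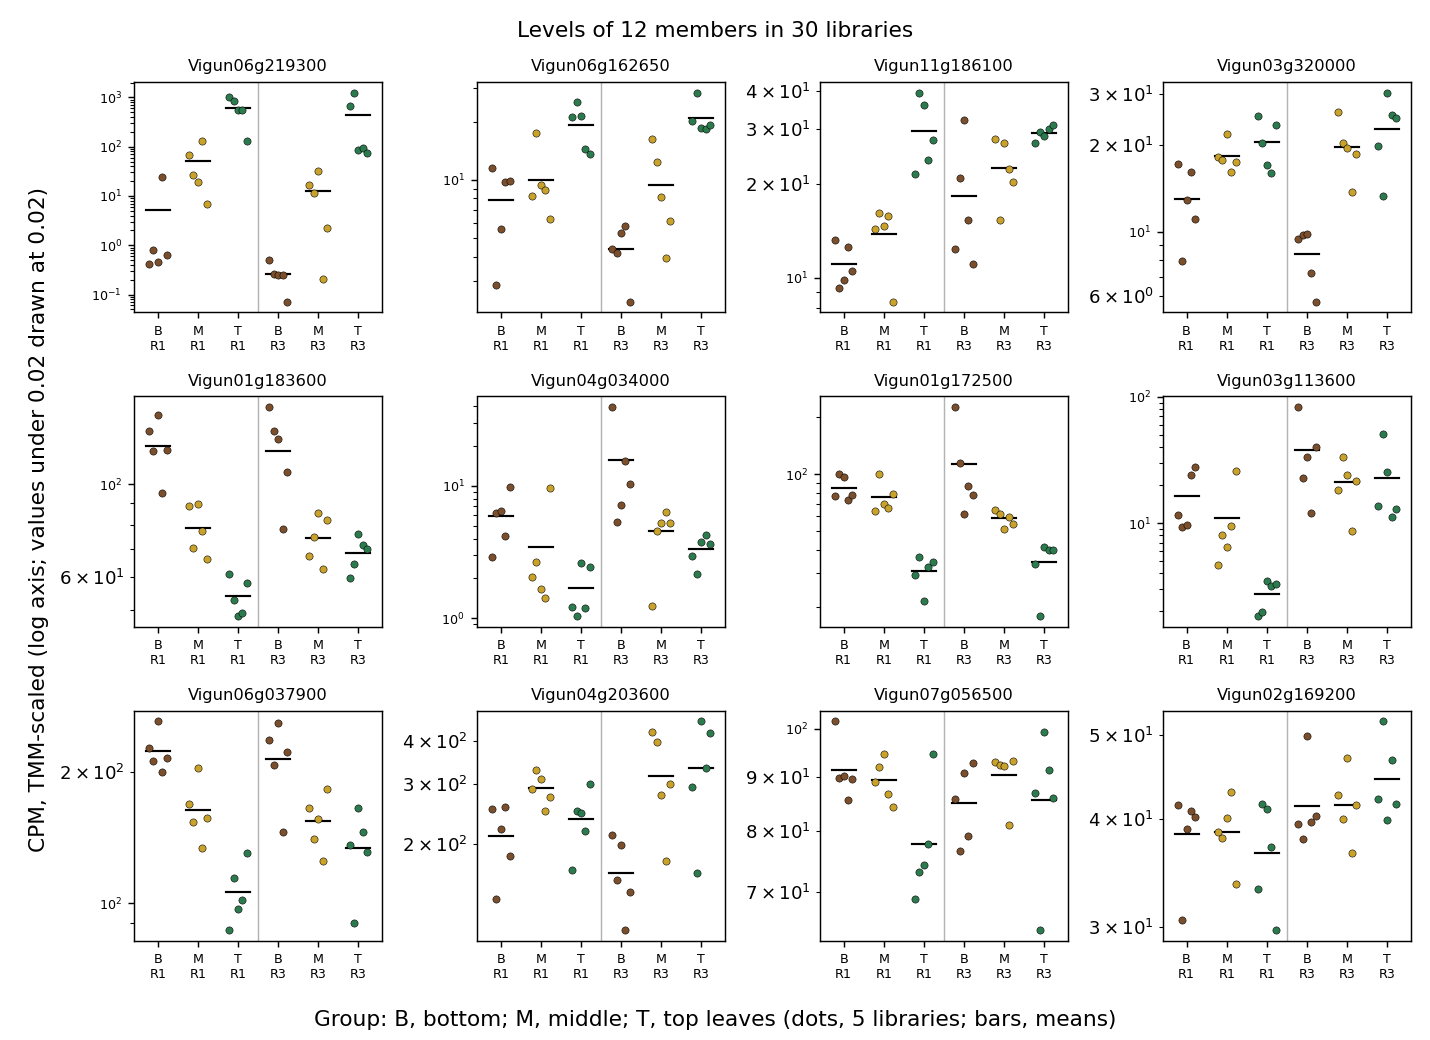
Levels of 12 members in 30 libraries on log axes (CPM, TMM-scaled; dots, libraries; bars, group means; B, M and T, bottom, middle and top leaves at R1 and R3). Vigun06g219300 spans from 0.0706 CPM in a bottom library to 1240.2 CPM in a top library, whereas the group means of Vigun07g056500 differ by a ratio of 1.17.

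Taking the stages side by side, 21 members were higher at the top at both (11.7%, against 17.7% of all genes), 19 were lower at both (10.6%, against 15.4%) and 0 were called in opposite directions (0.123% of all genes were). The 21 include Vigun11g182600, Vigun11g186000, Vigun03g126400 and Vigun06g234500, at 0.206, 0.663, 0.261 and 0.496 CPM without top leaves. The 19 include Vigun09g015400 and Vigun11g170000, at 0.299 and 0.775 CPM without bottom leaves. Such members carry no test, so these counts, and those of middle means below, are a description. Top versus bottom was called at either stage in 93 members (51.7%, against 61.7%), of which 26 were called at R1 alone (14.4% of members, against 9.76% of all genes) and 27 at R3 alone (15.0%, against 18.6%). The interaction that tests whether the top to bottom difference changed with stage called 0 members and 0% of all genes in edgeR; 24 members had an unadjusted p under 0.05, the lowest adjusted p among members was 0.094, and DESeq2 called 1 member. Calls at 1 stage alone are therefore not shown to be specific to it.

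**Figure D3:**
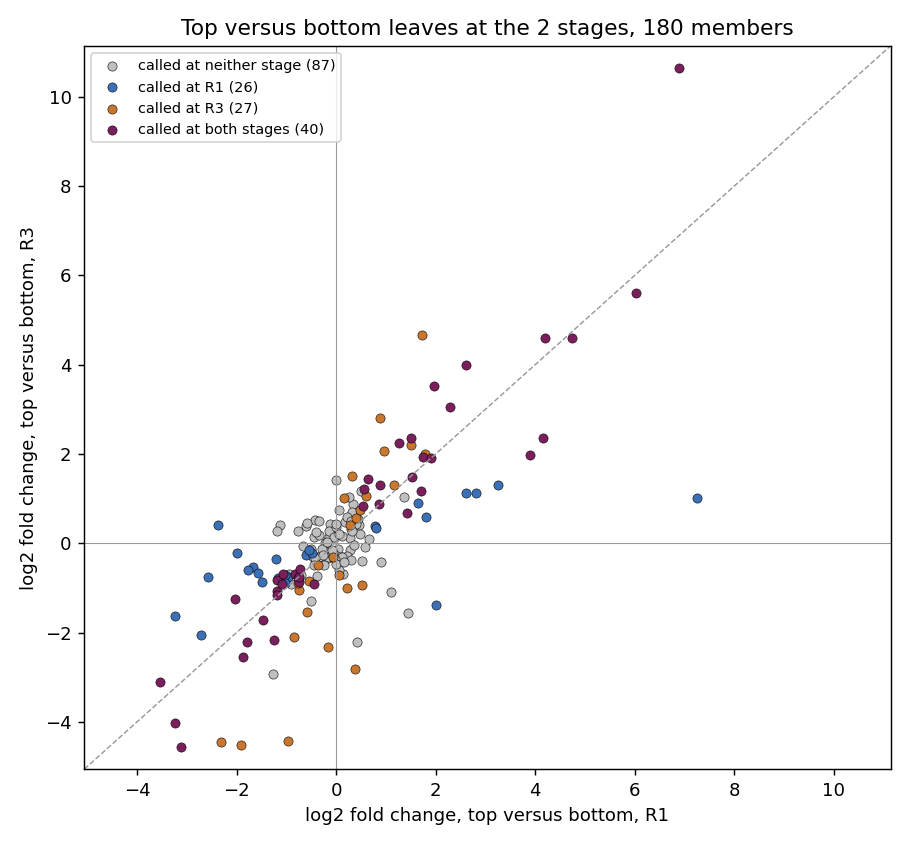
Log2 fold change of top versus bottom leaves at R1 (horizontal axis) and R3 (vertical axis) for the 180 members, coloured by the stage at which each was called. The 40 members called at both stages lie in the upper right or lower left, with Vigun06g219300 farthest out at 6.89 and 10.64; the point at 7.25 and 1.00 is Vigun03g166000, whose R1 value has 0 counts in bottom leaves and depends on the prior count of the fit.

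Middle leaves lay between the other positions in most of these members. Of the 21 higher at the top at both stages, the middle mean fell between bottom and top means in 18 at R1 and in 21 at R3 (85.7% and 100%, against 89.9% and 91.2% of all genes called the same way). Of the 19 lower members it did so in 14 at R1 and in 19 at R3 (73.7% and 100%, against 94.1% and 96.5%). The exceptions at R1 included Vigun10g196500 (chromosome 10, 40986694 to 40986849, plus strand, 156 bases), with 6.43 ± 1.02, 6.63 ± 0.770 and 4.70 ± 0.909 CPM from bottom to top.

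Members whose called top to bottom difference was at least 3 on the log2 scale at either stage were singled out after their values were seen. Among them, Vigun10g166500 (chromosome 10, 38546113 to 38546547, plus strand, 435 bases) was at 0.166, 0.0620, 0.0755, 0.539 and 0.105 CPM in bottom leaves at R1, against 3.23, 5.06, 3.64, 2.31 and 2.39 CPM in middle and 2.44, 6.30, 5.70, 4.91 and 6.27 CPM in top leaves. The bottom libraries held 13 counts of it in all, and middle leaves already exceeded every bottom library (log2 difference 4.12 with SE 0.72, adjusted p = 0.0027). Top versus bottom gave 4.74 at R1 (adjusted p = 3e-05) and 4.60 at R3 (adjusted p = 1e-05). Without bottom replicate 4 the R1 values were 5.55 for the top and 4.93 for the middle, and without bottom replicate 3 the R3 value for the top was 6.11.

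Vigun11g170000 (chromosome 11, 37614838 to 37615302, plus strand, 465 bases) went the other way, from 1.66, 4.34, 3.62, 4.31 and 2.37 CPM in bottom to 0.677, 1.62, 1.03, 2.07 and 1.96 CPM in middle and 0.348, 0.470, 0.225, 0.223 and 0.448 CPM in top leaves at R1. Bottom and top libraries did not overlap (log2 difference -3.23). At R3 the bottom libraries were at 14.8, 6.41, 3.06, 2.45 and 5.23 CPM and the top ones at 0.447, 0.393, 0.289, 0.590 and 0.177 CPM (log2 difference -4.03). These values carry no test, because the mean of the member is 0.775 CPM without its bottom libraries.

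Vigun03g166000 (chromosome 3, 19070890 to 19071364, minus strand, 475 bases) had 0 counts in the 5 bottom libraries of R1, which allows a level of up to 0.0454 CPM (3 counts over the group, counting error only). Top libraries of that stage were at 1.22, 3.86, 0.675, 0.967 and 0.448 CPM, and bottom libraries of R3 at 0, 0, 1.27, 3.31 and 0.0706 CPM. Detection in bottom leaves at R3 thus rested mainly on replicates 3 and 4. Middle libraries of R3 were at 0.0825, 0.0855, 0.0714, 10.6 and 0.495 CPM. Replicate 4 among them was the highest of all libraries of Vigun03g166000, so the mean of this member leans on that single library. No test is given, because its mean is 0.927 CPM without top leaves and 0.547 CPM without R3.

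Middle leaves differed from bottom leaves in 9 members at R1 (5.00%, against 7.79% of all genes), 5 of them higher (2.78%, against 5.00%) and 4 lower (2.22%, against 2.79%). At R3 the count was 30 (16.7%, against 22.5%), with 15 higher (8.33%, against 12.8%) and 15 lower (8.33%, against 9.75%). The fit held no replicate block, although replicate numbers paired bottom and middle leaves at R1. With library size alone, R1 gave 5 higher against 11 lower members, and R3 13 against 23. The R1 count was 3 to 5 without middle replicate 1, 2, 3 or 4 or bottom replicate 2 or 3, and 21 without bottom replicate 4; the R3 count was 18 without bottom replicate 1.

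Vigun01g183600 (chromosome 1, 36419443 to 36419640, minus strand, 198 bases) was the member of at least 5 CPM named for middle against bottom leaves at R1. Its level stepped down from 134, 120.3, 147, 95.4 and 121 CPM in bottom leaves to 88.9, 70.4, 89.7, 77.3 and 66.4 CPM in middle and 61.1, 52.8, 48.4, 49.3 and 58.0 CPM in top leaves. The ranges of the 3 positions did not overlap, and middle leaves (log2 difference -0.65 with SE 0.14, adjusted p = 0.0087) and top leaves (log2 difference -1.19 with SE 0.14, adjusted p = 3.2e-06) were both below bottom leaves. At R3 it again fell by 0.82 on the log2 scale from bottom to top leaves (SE 0.14, adjusted p = 5.4e-05).

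Vigun03g320000 (chromosome 3, 51427559 to 51427987, plus strand, 429 bases) was named for the same comparison at R3. Bottom leaves were at 9.46, 9.77, 9.82, 7.18 and 5.72 CPM, middle leaves at 25.9, 20.3, 19.4, 13.8 and 18.5 CPM and top leaves at 19.7, 13.3, 30.2, 25.3 and 24.7 CPM. Every middle and top library lay above every bottom library (log2 difference 1.22 with SE 0.22, adjusted p = 0.00028 for middle; 1.43 for top). The model Vigun03g320100, at 269 CPM, lay 109 bases downstream on the other strand, and the 2 went in opposite directions from bottom to top (1.43 against -0.89 at R3). Vigun04g039350 (chromosome 4, 3316038 to 3316439, plus strand, 402 bases) was the other, at 4.03, 2.84, 2.55, 3.67 and 2.61 CPM in bottom and 5.61, 4.87, 5.14, 4.86 and 6.63 CPM in middle leaves. These ranges were apart too (log2 difference 0.79 with SE 0.26, adjusted p = 0.028), but the call ended with library size alone (adjusted p = 0.067) and without bottom R3 replicates 2, 3 and 5 and middle R3 replicates 1 and 5 (adjusted p = 0.057 to 0.069).

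Top leaves differed from middle leaves in 23 members at R1 (12.8%, against 11.5% of all genes), 6 higher (3.33%, against 6.80%) and 17 lower (9.44%, against 4.65%). At R3 they differed in 8 members (4.44%, against 6.35%), 7 higher (3.89%, against 4.79%) and 1 lower (0.556%, against 1.56%). The 6 higher at R1 include Vigun11g182600 and Vigun11g186000, at 0.206 and 0.663 CPM without top leaves. Both passed the rule through the group where they are high, so these splits are descriptions. With library size alone R1 split into 8 higher against 14 lower, and R3 into 6 against 4. The R1 count was 12 to 15 without top replicate 1, 2, 3 or 4 or middle replicate 3. The R3 count was 1 to 3 without top replicate 1 or 2 or middle replicate 2, 3, 4 or 5, and 0 when only these groups were fitted. The lower member at R3 was Vigun10g196500, at 10.2, 8.12, 7.63, 8.75 and 7.12 CPM in middle and 5.37, 3.53, 6.47, 6.91 and 5.83 CPM in top leaves. Its ranges were apart (log2 difference -0.57 with SE 0.16, adjusted p = 0.035), and the call ended without middle R3 replicates 1, 2, 3, 4 and 5 and top R3 replicates 1 and 2 (adjusted p = 0.051 to 0.13).

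Between the stages, 25 members differed in bottom leaves (13.9%, against 16.2% of all genes), 18 of them higher at R3 (10.0%, against 7.71%) and 7 lower (3.89%, against 8.53%). Among the 18, Vigun01g042600, Vigun02g155600, Vigun03g078800, Vigun03g166000, Vigun03g282000 and Vigun11g214300 averaged 0.673, 0.785, 0.748, 0.547, 0.251 and 0.902 CPM without R3. The rule admitted these members through R3, so the split is a description and no test of a lean towards R3. Middle leaves gave 3 members (1.67%, against 2.48%), 2 higher (1.11%, against 1.06%) and 1 lower (0.556%, against 1.42%). Top leaves gave 3 (1.67%, against 1.56%), 3 higher (1.67%, against 0.799%) and 0 lower (background 0.759%). The bottom count was 13 to 16 without bottom R1 replicate 1, 3 or 4 or bottom R3 replicate 1, 8 without bottom R3 replicate 4, and 3 when only these groups were fitted. The middle count was 0 without middle R1 replicate 1, 3 or 4 or middle R3 replicate 2 or 3, 1 without middle R3 replicate 4 or 5, and 8 without middle R3 replicate 1. The top count was 1 without top R1 replicate 2 or 4 and 5 without top R3 replicate 2, and library size alone gave 3 higher and 2 lower. Named after their values were seen, the 3 members of middle leaves were Vigun03g013300 (0.76), Vigun09g258300 (0.60) and Vigun04g180150 (-0.98, all log2 fold changes), and those of top leaves were Vigun03g113600, Vigun01g160200 (1.2) and Vigun09g200600 (1.76).

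Vigun10g196500 rose in bottom leaves from 5.64, 6.01, 6.49, 5.85 and 8.16 CPM at R1 to 11, 9.77, 12, 9.32 and 10.9 CPM at R3. All R3 libraries were above all R1 libraries (log2 difference 0.72 with SE 0.16, adjusted p = 0.0046). Vigun07g130000 (chromosome 7, 23895505 to 23895825, plus strand, 321 bases) went from 14.1, 5.45, 6.57, 11.7 and 30.1 CPM to 4.53, 4.86, 4.14, 0.306 and 1.48 CPM, again without overlap (log2 difference -2.15 with SE 0.60, adjusted p = 0.018). That call ended without bottom R1 replicate 5 (adjusted p = 0.064) and when only these groups were fitted (adjusted p = 0.074). The means of Vigun07g130000 were lower at R3 at the other positions too, though neither difference was called. Middle leaves went from 18.5 ± 2.96 to 6.39 ± 3.78 CPM with separate ranges. Top leaves went from 19.2 ± 7.49 to 6.87 ± 4.17 CPM with overlap.

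Of the 18 members higher at R3 in bottom leaves, 7 had replicates 1 and 4 as their highest bottom libraries of R3, a pattern singled out after the values were seen. In 4 of these 7, Vigun01g026700, Vigun03g078800, Vigun08g095900 and Vigun11g214300, replicate 2 was also the highest library of both bottom and middle leaves at R1. How often either pattern occurs among the 1564 genes called higher at R3 in bottom leaves was not counted. Neither is therefore shown to be particular to the members. Vigun08g095900 (chromosome 8, 23049547 to 23049780, plus strand, 234 bases) was at 40.8, 2.22, 5.29, 99.1 and 10.7 CPM in bottom leaves at R3, Vigun01g026700 (chromosome 1, 3144695 to 3145105, minus strand, 411 bases) at 20.3, 0.931, 6.88, 105 and 12.3 CPM and Vigun03g078800 (chromosome 3, 6518814 to 6519284, minus strand, 471 bases) at 29.8, 1.29, 3.06, 12.9 and 2.90 CPM. These members lie on 3 different chromosomes. The bottom libraries of R1 were at 0.166, 3.10, 1.13, 1.31 and 0.790 CPM for Vigun08g095900, 1.08, 9.05, 5.44, 2.46 and 2.79 CPM for Vigun01g026700 and 0.249, 2.73, 0.679, 0.693 and 0.895 CPM for Vigun03g078800. In middle leaves at R1 replicate 2 stood at 11.4, 9.16 and 3.44 CPM in that order.

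At R3 top leaves were lower than bottom leaves in Vigun08g095900 (log2 difference -4.43, adjusted p = 0.0025) and Vigun01g026700 (-4.44, adjusted p = 0.0011), with overlapping ranges. For Vigun03g078800 the value was -4.52, with no test, since its mean is 0.529 CPM without bottom leaves and 0.748 CPM without R3. Without bottom R3 replicate 4 the values for Vigun08g095900 and Vigun01g026700 were -3.34 and -2.92, and without replicate 1 that for Vigun03g078800 was -3.56; without top R3 replicate 1 it was -5.86. From R1 to R3 in bottom leaves, Vigun08g095900 rose by 4.58 on the log2 scale (adjusted p = 0.01), and by 3.48 without bottom R3 replicate 4 or 5.20 without bottom R1 replicate 2.

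Members lay on all chromosomes, from 7 on chromosome 10 to 26 on chromosome 3. Counts of higher and lower members per chromosome stand beside 22.2% higher and 20.8% lower of all genes at R1 and 26.1% and 25.8% at R3, and no test compares chromosomes. They are descriptions, since they include members that carry no test, such as Vigun03g126400, Vigun06g234500, Vigun09g015400, Vigun11g182600 and Vigun11g186000. Joining members at most 50 kb apart gave 10 runs of neighbours, which held 30 members; the other 150 stood alone at that distance. At 10 kb there were 8 runs with 18 members, and at 200 kb 15 runs with 43 members. The runs of 9, 5 and 2 members below are described by chromosome, with members of the smaller runs and the most abundant member per kb of each chromosome included after the values were seen.

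**Figure D4:**
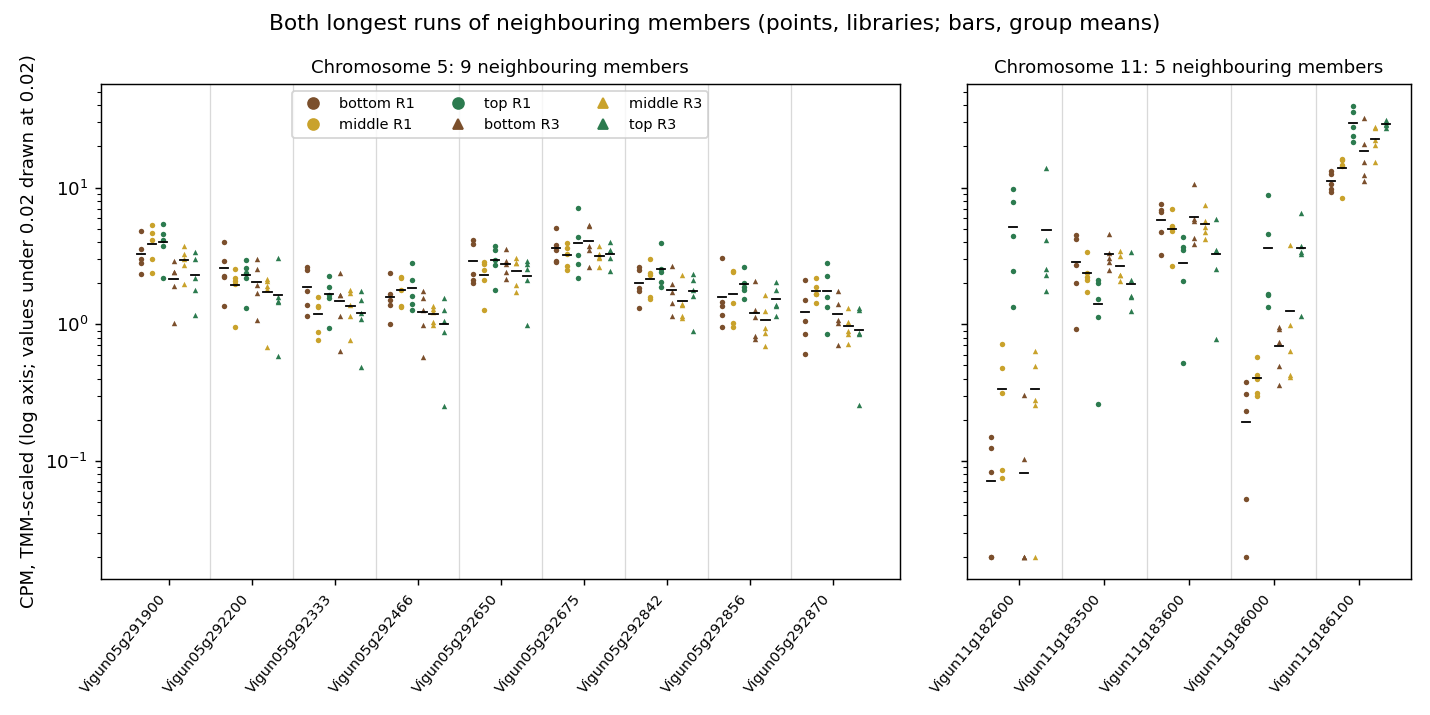
Levels of the members of the 2 longest runs on chromosomes 5 and 11, in order along the chromosome, on a shared log axis (CPM, TMM-scaled; circles, R1 libraries; triangles, R3 libraries; bars, means of 5 libraries; values under 0.02 drawn at 0.02). In the 9 members on chromosome 5 the bottom and top libraries of a stage overlap, while Vigun11g182600 and Vigun11g186000 on chromosome 11 have every top library above every bottom library of the same stage.

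Chromosome 1 held 22 members, of which 1 was higher and 7 lower in top than in bottom leaves at R1, and 3 higher and 6 lower at R3. Vigun01g187600 (chromosome 1, 36737311 to 36737806, plus strand, 496 bases) and Vigun01g187700 (chromosome 1, 36742172 to 36742477, plus strand, 306 bases) are neighbours on the same strand, 4365 bases apart. At R1 the former was at 0.580, 0.248, 0.528, 15.6 and 8.53 CPM in bottom, 26.1, 31.2, 32.1, 27.2 and 23.4 CPM in middle and 0.784, 9.69, 4.95, 3.49 and 6.54 CPM in top leaves. The latter was at 0.497, 0.806, 1.89, 2.62 and 0.895, 3.68, 14.9, 13.1, 4.21 and 3.24 and 0.261, 6.12, 1.05, 0.669 and 1.07 CPM in the same order. Both had their highest mean in middle leaves at both stages. For Vigun01g187600 all middle libraries of R1 lay above every bottom and top library, but the difference was not called (adjusted p = 0.12 for middle versus bottom). For Vigun01g187700 it was (log2 difference 2.54 with SE 0.79, adjusted p = 0.045). That call ended with the replicate number as a block (adjusted p = 0.069) and without bottom R1 replicates 1, 2, 3 and 5 and middle R1 replicates 1, 2, 3 and 4 (adjusted p = 0.056 to 0.13).

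The other run of chromosome 1 joined Vigun01g159000 (chromosome 1, 34089166 to 34089297, plus strand, 132 bases) and Vigun01g159700 (chromosome 1, 34139018 to 34139194, minus strand, 177 bases), 49720 bases apart on opposite strands, and its members went apart. Vigun01g159000 was at 0.411, 0.569, 1.47, 0.866 and 1.27 CPM in bottom and 2.30, 2.45, 2.80, 1.94 and 1.86 CPM in top leaves at R3, with separate ranges (log2 difference 1.30 with SE 0.36, adjusted p = 0.0044). The model Vigun01g159100 (27.2 CPM) lies 44 bases downstream of it on the same strand. From bottom to top that model gave 1.03 at R1 and 1.81 at R3, beside 0.87 and 1.30 for the member. Vigun01g159700 was at 10.9, 9.92, 24.8, 1.39 and 1.68 CPM in bottom and 1.39, 0.659, 1.12, 1.56 and 0.358 CPM in top leaves at R1, where bottom replicate 4 lay within the range of the top libraries (log2 difference -3.23 with SE 0.93, adjusted p = 0.0069; -2.53 without bottom replicate 3). At R3 its adjusted p was 0.13.

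Chromosome 2 held 10 members, with 3 higher and 1 lower at the top at R1 and 3 and 2 at R3. Vigun02g000021 (chromosome 2, 7551 to 7691, minus strand, 141 bases) and Vigun02g000028 (chromosome 2, 9043 to 9201, minus strand, 159 bases) lie 1351 bases apart near the start of the chromosome. Vigun02g000021 was at 2.40, 2.05, 1.13, 1.39 and 1.53 CPM in bottom and 2.96, 6.02, 5.77, 5.95 and 3.76 CPM in top leaves at R1 (log2 difference 1.52 with SE 0.45, adjusted p = 0.0088). At R3 it was higher at the top by 1.5 on the log2 scale (adjusted p = 0.0084) with overlapping ranges. Vigun02g000028 was at 0.383, 1.67, 6.95, 0 and 0.795 CPM in top leaves at R3, where replicate 3 stood out, and carries no test, since its mean is 0.725 CPM without top leaves. The most abundant per kb, Vigun02g104800 (chromosome 2, 25947661 to 25947774, minus strand, 114 bases, 93.4 CPM per kb), was at 7.20 ± 1.37 CPM in bottom and 13 ± 0.970 CPM in top leaves at R3, without overlap (log2 difference 0.84 with SE 0.17, adjusted p = 0.00019). The model Vigun02g104700 (42.4 CPM), 94 bases downstream on the same strand, gave 0.71 at R3.

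Chromosome 3 held the most members, with 6 higher and 4 lower at the top at R1 and 6 of each at R3. Vigun03g282000 (chromosome 3, 46227295 to 46227708, minus strand, 414 bases) and Vigun03g282200 (chromosome 3, 46256614 to 46256859, plus strand, 246 bases) lie 28905 bases apart on opposite strands. Vigun03g282200 was at 10.8, 9.98, 11, 6.54 and 5.69 CPM in bottom, 2.10, 2.77, 2.29, 1.11 and 2.99 CPM in middle and 0.697, 0.282, 0.825, 1.26 and 0.627 CPM in top leaves at R1. Bottom leaves were above all middle and top libraries (log2 difference -3.54 with SE 0.49, adjusted p = 1.3e-05), and at R3 the difference was again without overlap (log2 difference -3.10 with SE 0.48, adjusted p = 1.2e-05). Vigun03g282000 was near 0 at R1, with a highest library of 0.683 CPM, and at 0.494, 0.569, 1.85, 20.3 and 3.18 CPM in bottom leaves at R3. The log2 difference of R3 over R1 in bottom leaves was 4.59, and 2.80 without bottom R3 replicate 4 or 5.73 without bottom R1 replicate 5. It carries no test, since the mean of the member is 0.251 CPM without R3.

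Vigun03g126400 (chromosome 3, 12008616 to 12009046, minus strand, 431 bases) and Vigun03g126450 (chromosome 3, 12034547 to 12034928, minus strand, 382 bases), 25500 bases apart on the minus strand with no other model between them, both had higher means at the top at both stages. Vigun03g126450 was at 0.332, 0.372, 0.528, 0.0770 and 2.00 CPM in bottom, 2.78, 5.25, 3.09, 0 and 0.256 CPM in middle and 14.0, 12.5, 8.92, 10.6 and 5.82 CPM in top leaves at R1. The top libraries lay above all others (log2 difference 3.90 with SE 0.84, adjusted p = 0.00074; 4.94 without bottom replicate 5). Vigun03g126400 was at 3.66, 19.2, 3.52, 1.34 and 0.985 CPM in top leaves at R1, where replicate 2 stood out, and its bottom libraries held 23 counts in all (log2 difference 4.20; 2.94 without top replicate 2 and 5.87 without bottom replicate 2). At R3 the log2 difference of Vigun03g126400 was 4.61 (3.83 without top replicate 2). No test is given for this member, whose mean is 0.261 CPM without top leaves. The R3 call of Vigun03g126450 (log2 difference 1.97 with SE 0.77, adjusted p = 0.035) ended with library size alone (adjusted p = 0.058) and without bottom R3 replicates 1, 2 and 5 and top R3 replicates 2 and 4 (adjusted p = 0.065 to 0.13).

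Elsewhere on chromosome 3, Vigun03g105101 (chromosome 3, 9086048 to 9086506, minus strand, 459 bases) was higher at the top at R3, from 0.905, 0.621, 2.29, 6.27 and 1.62 CPM in bottom to 24.7, 5.60, 50.6, 68.7 and 155 CPM in top leaves (log2 difference 4.67 with SE 1.21, adjusted p = 0.0024). Top replicate 2 overlapped bottom replicate 4, and the value was 5.48 without the latter and 3.97 without top replicate 5. Middle leaves of that stage were at 2.72, 5.30, 41.0, 254 and 7.42 CPM. Middle replicate 4 was thus the highest of the 30 libraries of this member, above every top library. Vigun03g425300 (chromosome 3, 63093567 to 63093875, minus strand, 309 bases) was at 7.57, 0.569, 6.12, 1.99 and 1.41 CPM in bottom and 22.3, 3.14, 47.5, 77.7 and 50.7 CPM in top leaves at R3, with 1 top library among the bottom ones (log2 difference 3.53 with SE 0.83, adjusted p = 0.0011). Vigun03g351100 was called at R1 (3.25, adjusted p = 0.014) on top libraries of 1.66, 25.5, 2.02, 1.56 and 0.269 CPM; without replicate 2 the value was 1.09 (adjusted p = 0.35), and without bottom replicate 4 it was 5.46.

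On chromosome 4, 11 members included 3 higher and 1 lower at the top at R1 and 3 and 2 at R3. Vigun04g016700 (chromosome 4, 1222923 to 1223141, minus strand, 219 bases) was at 0.905, 0.724, 1.02, 1.17 and 0.494 CPM in bottom, 3.63, 2.65, 4.21, 2.5 and 6.63 CPM in middle and 5.17, 2.55, 9.55, 10.4 and 8.66 CPM in top leaves at R3. Bottom libraries lay below all middle and top ones (log2 difference 3.05 with SE 0.53, adjusted p = 5e-05; middle versus bottom 2.16, adjusted p = 0.0041). At R1 it was higher at the top as well, with overlapping ranges (log2 difference 2.30 with SE 0.53, adjusted p = 0.0012).

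Chromosome 5 held 22 members, of which 0 were higher and 4 lower at the top at R1 and 1 higher and 0 lower at R3. Its longest run, from 47813568 to 47902212, held 9 members on the minus strand in 88.6 kb, with 12 other models between them. Their models were 339 to 453 bases long, and their means ran from 1.32 CPM (Vigun05g292870) to 3.60 CPM (Vigun05g292675). None of the 9 was called in top versus bottom leaves at R1 or R3, where log2 fold changes ran from -0.17 to 0.52 and from -0.40 to 0.33. Summed over the 9, the level was 20.6 ± 6.27, 19.9 ± 3.74 and 22.9 ± 6.53 CPM from bottom to top at R1 and 17.9 ± 4.61, 16.3 ± 1.86 and 15.9 ± 3.39 CPM at R3 (n = 5 each). The groups of this sum overlapped, with single libraries between 11 and 32.7 CPM.

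Within that run, Vigun05g292675 (chromosome 5, 47874869 to 47875282, minus strand, 414 bases) was at 3.48, 5.02, 3.77, 2.92 and 2.84 CPM in bottom and 7.06, 2.16, 3.22, 4.31 and 2.78 CPM in top leaves at R1, with top replicate 1 above all others. Vigun05g292856 (chromosome 5, 47901235 to 47901654, minus strand, 420 bases) and Vigun05g292870 (chromosome 5, 47901760 to 47902212, minus strand, 453 bases) stood 105 bases apart. They were at 1.96 ± 0.410 and 1.76 ± 0.763 CPM in top leaves at R1 and at 1.54 ± 0.357 and 0.914 ± 0.431 CPM at R3. Middle libraries of Vigun05g292870 at R1 (1.42 to 2.20 CPM) lay above those at R3 (0.714 to 1.32 CPM), and the difference was not called (adjusted p = 0.19). Vigun05g291900, Vigun05g292650 and Vigun05g292842 were at 3.29 ± 0.938, 2.89 ± 1.02 and 2.00 ± 0.539 CPM in bottom leaves at R1. The remaining Vigun05g292200, Vigun05g292333 and Vigun05g292466 lie inside introns of Vigun05g292000, a model of 25 exons on the same strand at 29.1 CPM. They were at 2.56 ± 0.986, 1.87 ± 0.648 and 1.58 ± 0.496 CPM in bottom leaves at R1. Top versus bottom at R1 gave -0.69 for that host gene (adjusted p = 0.017) and -0.16, -0.17 and 0.21 for the 3 members inside it (adjusted p = 0.75, 0.71 and 0.63).

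The most abundant member of chromosome 5 per kb was Vigun05g055900 (chromosome 5, 4789121 to 4789435, minus strand, 315 bases, 374 CPM per kb). At R1 it was at 118, 109, 125, 135 and 134 CPM in bottom, 123, 122, 118, 122 and 106 CPM in middle and 78.9, 89.3, 80.7, 78.6 and 100.1 CPM in top leaves. Top libraries lay below all others (log2 difference -0.54 with SE 0.14, adjusted p = 0.0026), whereas at R3 the ranges overlapped (adjusted p = 0.34).

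Chromosome 6 held 14 members, with 4 higher and 2 lower at the top at R1 and 3 and 2 at R3. Vigun06g219300, described above, has the member Vigun06g220000 (chromosome 6, 33010465 to 33010578, minus strand, 114 bases) 24333 bases away on the other strand, with 5 other models between them. Vigun06g220000 did not share its rise, at 6.84 ± 2.06, 5.71 ± 2.12 and 7.5 ± 0.381 CPM from bottom to top at R1 (top versus bottom, 0.13, adjusted p = 0.76) and -0.69 at R3 (adjusted p = 0.06). In bottom leaves it was higher at R3 than at R1, at 10.5, 7.65, 19.6, 17.2 and 18.1 CPM against 4.39, 6.57, 6.11, 7.08 and 10.1 CPM with overlap (log2 difference 1.09 with SE 0.31, adjusted p = 0.019). The call ended without bottom R1 replicate 1 and bottom R3 replicate 4 (adjusted p = 0.05 to 0.062) and when only these groups were fitted (adjusted p = 0.055). The other run joined Vigun06g178300 (chromosome 6, 29836342 to 29836647, minus strand, 306 bases) and Vigun06g178500 (chromosome 6, 29860351 to 29860596, minus strand, 246 bases), 23703 bases apart on the same strand. At R3 Vigun06g178300 was at 22.5, 2.43, 4.21, 11.4 and 1.55 CPM in bottom and 1.79, 1.18, 1.64, 1.85 and 1.86 CPM in top leaves (log2 difference -2.33 with SE 0.64, adjusted p = 0.004; -1.55 without bottom replicate 1), while Vigun06g178500 gave -0.38 (adjusted p = 0.16). The model Vigun06g178600 (76.6 CPM), 330 bases upstream of Vigun06g178500 on the same strand, gave -1.05 at R3.

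Chromosome 7 held 19 members, with 2 higher against 3 lower at the top at R1, then 4 against 2 at R3. Vigun07g092500 (chromosome 7, 14723966 to 14724262, plus strand, 297 bases) and Vigun07g092600 (chromosome 7, 14728499 to 14728792, plus strand, 294 bases) are 4236 bases apart on the same strand with no model between them. The former was at 15.4 ± 4.62 and 14.6 ± 2.72 CPM in bottom and top leaves at R1 (adjusted p = 0.74). The latter was at 1.24, 1.24, 1.89, 0.770 and 0.684 CPM in bottom and 2.44, 4.99, 3.37, 4.01 and 3.40 CPM in top leaves, with separate ranges (log2 difference 1.64 with SE 0.52, adjusted p = 0.012), and at R3 its adjusted p was 0.13.

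Chromosomes 8, 9 and 10 held 9, 18 and 7 members, none of them in a run. On chromosome 8, 4 members were higher and 1 lower at the top at R1 and 2 and 2 at R3; its most abundant member per kb, Vigun08g189200 (185 CPM per kb), ranged from 0.0620 to 56.3 CPM among the bottom libraries of R1 alone and was called in no comparison of 2 groups. On chromosome 9 the counts were 1 and 4 at R1, then 3 of each at R3, and its most abundant, Vigun09g022200 (114 CPM per kb), ranged from 2.80 to 54.7 CPM in bottom leaves at R3. On chromosome 10, R1 gave 2 higher against 3 lower members, and R3 1 against 3; 6 of its 7 members were called in at least 1 of the 9 comparisons, beside 104 of all 180 members (57.8%, against 67.0% of all genes tested).

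Chromosome 11 held 22 members, with 4 higher and 6 lower at the top at both R1 and R3. The higher ones include Vigun11g182600 and Vigun11g186000, which passed the rule through their top libraries and carry no test. The run from 38589219 to 38661426 placed 5 members in 72.2 kb, with 31 other models between them. Vigun11g182600 (chromosome 11, 38589219 to 38589533, minus strand, 315 bases) was at 0.0829, 0.124, 0.151, 0 and 0 CPM in bottom, 0.0752, 0.477, 0.317, 0.716 and 0.0854 CPM in middle and 7.84, 9.69, 4.42, 2.45 and 1.34 CPM in top leaves at R1. Bottom libraries held 5 counts of it at R1 and 8 at R3, and top libraries lay above every bottom and middle library at both stages. The log2 difference from bottom to top was 6.03 at R1 and 5.60 at R3 (4.72 without top replicate 1 and 6.91 without bottom replicate 4). No test is given, because the member passed 1 CPM through its top libraries, with a mean of 0.206 CPM without them.

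At the other end of the run, Vigun11g186000 (chromosome 11, 38658911 to 38659403, plus strand, 493 bases) lies 1762 bases from Vigun11g186100 on the same strand, and both had higher means at the top. Vigun11g186000 was at 0, 0.310, 0.378, 0.231 and 0.0526 CPM in bottom and 1.66, 8.75, 4.57, 1.64 and 1.34 CPM in top leaves at R1, with separate ranges (log2 difference 4.15; 3.51 without top replicate 2). At R3 the log2 difference was 2.36, and neither carries a test, since the mean is 0.663 CPM without top leaves. The 2 members in the middle of the run, Vigun11g183500 (chromosome 11, 38613564 to 38613842, minus strand, 279 bases) and Vigun11g183600 (chromosome 11, 38614639 to 38614893, plus strand, 255 bases), lie 796 bases apart on opposite strands and had lower values at the top. At R1 they fell by 1.02 (adjusted p = 0.039) and by 1.03 (adjusted p = 0.049) on the log2 scale, with overlapping ranges. The first call ended without bottom R1 replicates 3, 4 and 5 and top R1 replicates 1, 2 and 5 (adjusted p = 0.052 to 0.11) and the second without bottom R1 replicates 1, 3, 4 and 5 and top R1 replicates 1, 2, 3 and 5 (adjusted p = 0.05 to 0.11). At R3 their values were -0.71 (adjusted p = 0.13) and -0.90 (adjusted p = 0.076). The most abundant member of the chromosome per kb, Vigun11g177900 (218 CPM per kb), was at 14.8 ± 5.84 CPM in bottom and 30.3 ± 23.8 CPM in top leaves at R3 (adjusted p = 0.051). Its log2 fold change was 1.03, beside 0.89 for Vigun11g178000 (74.4 CPM), 102 bases downstream on the same strand.

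Of the 180 members, 2 overlapped an exon of another model, 5 lay inside an intron of another model, all on the same strand as that model, and 173 stood free of other exons and introns. For these the median gap to the nearest model was 1816 bases, and 43 had a model within 500 bases. The sources used here do not give the strand setting of the counting; without it, reads from overlapping models on opposite strands cannot be told apart. Vigun06g234500 (chromosome 6, 34024767 to 34025189, plus strand, 423 bases) overlaps the exon of Vigun06g234400, a model at 1258.5 CPM. The member was at 0.165, 0.103, 0.128, 0.255 and 0.282 CPM in bottom and 4.66, 5.40, 2.61, 1.43 and 1.41 CPM in top leaves at R3, and log2 differences from bottom to top were 2.61 for the member and 1.61 for the other model at R1 and 3.99 and 2.78 at R3. The member carries no test, since its mean is 0.496 CPM without top leaves. The sources used here do not say how reads shared by overlapping models were counted, so both values are uncertain. Vigun09g015400 (chromosome 9, 1124447 to 1124749, minus strand, 303 bases) overlaps Vigun09g015300, at 0.389 CPM, and the 2 had values of opposite sign, -3.12 for the member, with no test because its mean is 0.299 CPM without bottom leaves, and 2.89 for the other (adjusted p = 0.023) at R1. The member was at 3.32, 1.67, 4.45, 4.00 and 3.84 CPM in bottom and 0, 0, 0.225, 0.967 and 0.716 CPM in top leaves at R1, without overlap (-3.82 without top replicate 4). At R3 its log2 difference was -4.56 (-3.84 without bottom replicate 1).

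Members close to a model on the same strand often had a top to bottom difference near that of the model. Pairs were formed for those of the 173 free-standing members whose nearest model also passed the filter on low counts. In 28 pairs with a gap of at most 500 bases on the same strand, the log2 fold changes of member and neighbour had a Pearson correlation of 0.68 at R1 and 0.86 at R3 (Spearman 0.70 and 0.76), and their median absolute difference was 0.24 and 0.19. The pair farthest out was Vigun11g170000 and its neighbour, and without it the Pearson correlations were 0.70 and 0.76. The partners lay within 0.5 of each other in 24 pairs at R1 and 19 at R3, and had opposite signs in 7 and 4, among them Vigun10g097800 at -1.21 against 0.79 at R1. Both partners were called in 3 pairs at R1, 2 of them in the same direction, and in 8 at R3, all 8 in the same direction. In the 418 such pairs of other expressed models, both were called in 73 at R1, 53 of them in the same direction, and in 114 at R3, 80 of them in the same direction. With the neighbour on the opposite strand (10 pairs), the correlations were -0.12 and 0.25 and the median differences 1.76 and 1.35. At gaps over 500 and up to 2000 bases (34 pairs) the correlations were 0.09 and 0.43, and over 2000 bases (62 pairs) -0.00060 and 0.07.

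The 418 pairs of other models had correlations of 0.34 and 0.38 and median differences of 0.50 and 0.56, and those on opposite strands (611 pairs) -0.04 and 0.01. These are descriptions across genes of the same libraries, with no test, and 1 pair, Vigun05g292856 and Vigun05g292870, is counted from both sides. Among the close pairs on the same strand, the neighbour was downstream in 19 and upstream in 9, with correlations of 0.70 and 0.86 in the former and 0.61 and 0.85 in the latter at R1 and R3. Vigun11g170000, for example, ends 271 bases before Vigun11g170100 (35.2 CPM), and the 2 gave -3.23 and -1.26 at R1 and -4.03 and -3.27 at R3.

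**Figure D5:**
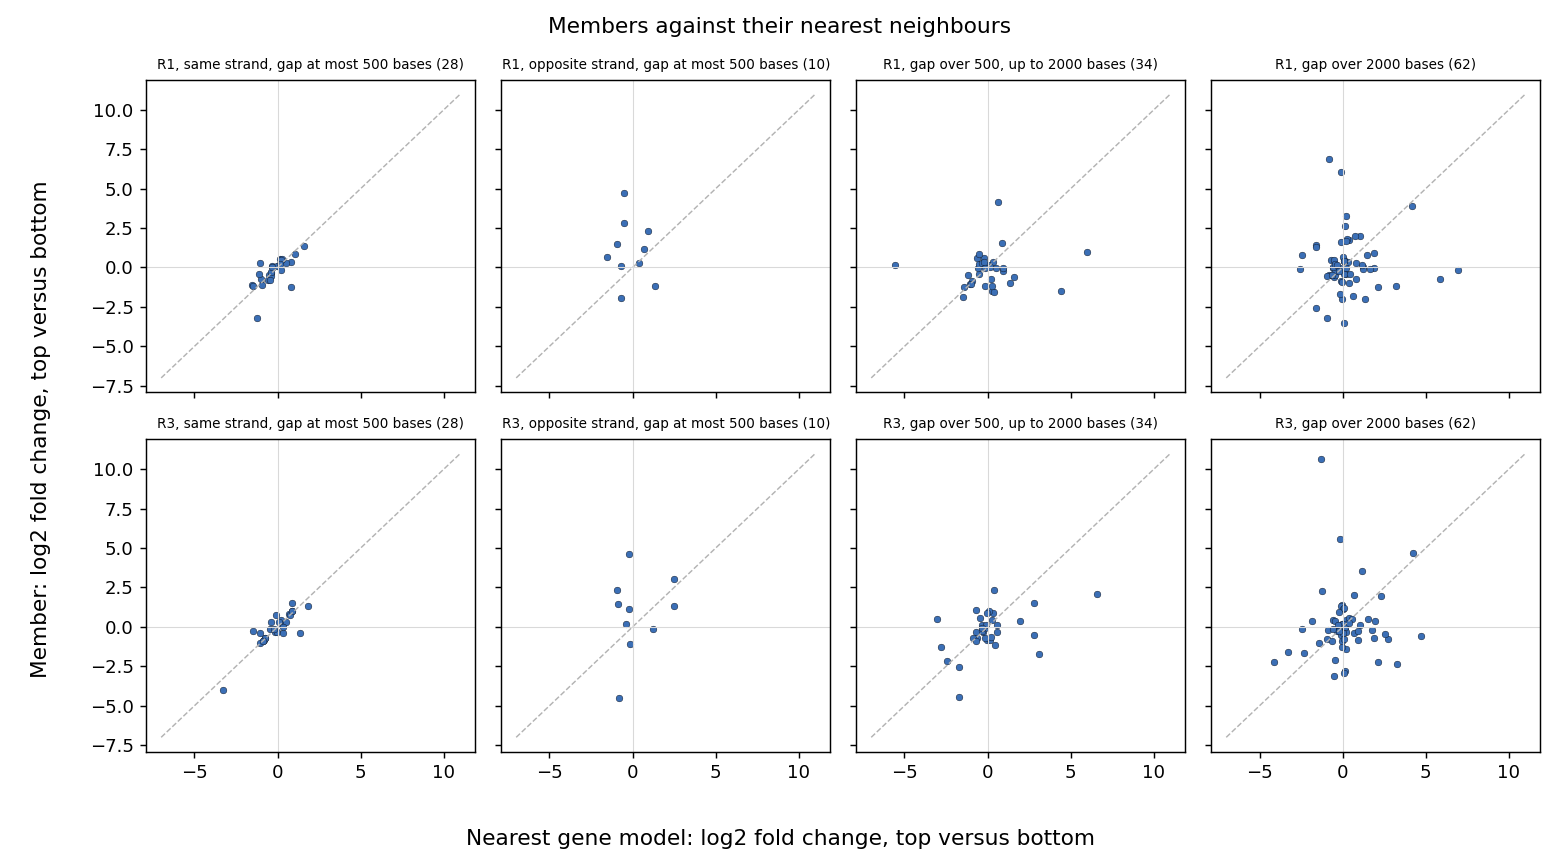
Log2 fold change of top versus bottom leaves of members (vertical axis) against that of their nearest model (horizontal axis), in panels by gap and strand, at R1 (upper row) and R3 (lower row). Members that overlap an exon or lie in an intron are not drawn, nor are those whose nearest model failed the filter on low counts. The 28 pairs within 500 bases on the same strand have correlations of 0.68 and 0.86, with Vigun10g097800 (-1.21 against 0.79 at R1) among those off the dashed line of equal values, and the 62 pairs over 2000 bases apart have -0.00060 and 0.07.

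Beside other classes of gene model of at least 1 CPM on average, the members were called less or more often depending on the class. In top versus bottom leaves, 36.7% and 37.2% of the 180 members were called at R1 and R3, compared with 42.2% and 52.9% of the 1915 longer intronless models, 25.8% and 33.8% of the 287 models of at most 500 bases with introns, and 43.6% and 52.7% of the 16207 longer models with introns. These shares carry no test. Standard errors were not alike between the classes: at R1 their median was 0.36 in members, 0.39 in longer intronless models, 0.26 in short models with introns and 0.22 in longer models with introns. Among members of at most 200, up to 300, up to 400 and more than 400 bases, 36.4%, 43.3%, 29.5% and 42.2% were called at R1 and 36.4%, 26.7%, 31.1% and 53.3% at R3 (n = 44, 30, 61 and 45), with no steady order by length.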

How the data were processed

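Polyadenylated RNA from cowpea leaves was sequenced, and the authors deposited raw read counts per gene model for 30 libraries; the tools HISAT2, featureCounts and DESeq2 were used, per the submitters' processing notes, which give no version. Build, strand setting and treatment of reads shared by models are absent from the sources used here. From the counts, edgeR 4.0.16 (R 4.3.3) was run with TMM scaling, filterByExpr by group and a quasi-likelihood test with 24 residual degrees of freedom, fitting 6 groups together and adjusting p-values by Benjamini-Hochberg over 20284 genes. The fit was tested on simulated data with known changes. CPM, log2 values and run distances were computed here with Python 3.11.15. Alternatives were other scalings, DESeq2 1.42.0, no filter, a replicate block, the groups compared alone, a 2-fold minimum, other length and level limits, and leaving out each library.

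Members of at least 5 CPM were named by largest called change with ranges that did not overlap (at most 2 per direction and comparison) or by evenness. Members of any level were named by abundance per kb, place in a run or nearness to a limit. All other names were chosen after values were seen. The members and lists were chosen with earlier results of these data known. Lists by product name, cell type markers among them, were not analysed here, because no identifier matched the RefSeq table, so the leaf tissue was not checked by markers, and no sequence is printed.

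For pairs of replicates of a group, the chi-square per degree of freedom was 16.6 to 188.5. This is the ratio of their variance to that of sampling noise, over genes of the whole table and not the members alone. Deviations of same-numbered libraries correlated at 0.19 to 0.52 between bottom and middle leaves at R1, with each library closest to its own number. Replicate numbers were taken to pair those groups, and no other groups met this rule. The main fit held no replicate block, so its p-values for middle against bottom leaves at R1 do not use this pairing. Counts with a block are given below. Intervals and floors cover counting error only.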

Additional observations from a re-analysis of the deposited data

Results flagged for a closer look

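In groups of 5 libraries, a value was marked where its gap to the nearest other library was large relative to the range of the group (Dixon's test); about 1 group in 20 is marked by chance. Of 210 group values over 35 members named by rule, 16 were marked, and 3 of these were middle leaves at R1, replicate 5.

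In middle leaves at R1, replicate 5 stood at 26 CPM for Vigun03g113600 (nearest other library 9.54), at 9.56 CPM for Vigun04g034000 (2.67) and, on the low side, at 8.37 CPM for Vigun11g186100 (14.4). Replicate 2 of that group was at 17.4 CPM for Vigun06g162650 (9.34), for which top replicate 2 at R3 was also high, at 28.2 CPM (20.1). In middle leaves at R3, replicate 2 was at 0.684 CPM for Vigun05g292200 (1.81) and at 2.31 CPM for Vigun05g292842 (1.40), and replicate 4 at 3.82 CPM for Vigun11g186000 (0.989) and at 81.0 CPM for Vigun07g056500 (92.2).

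Bottom leaves at R1 had replicate 4 at 23.9 CPM for Vigun06g219300 (0.806), replicate 1 at 102 CPM for Vigun07g056500 (90.1), and replicate 2 at 3.04 CPM for Vigun05g292856 (1.46) and at 30.6 CPM for Vigun02g169200 (38.9). At R3, bottom replicate 3 was at 25.6 CPM for Vigun01g187600 (5.84) and at 49.8 CPM for Vigun02g169200 (40.3), and top replicate 1 at 13.9 CPM for Vigun11g182600 (4.12).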

How the results depend on the processing

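Without 1 library at a time, 55 to 63 members were called between top and bottom leaves at R1 and 58 to 72 at R3. The ranges were 3 to 21 and 18 to 41 for middle against bottom leaves at R1 and R3, 12 to 22 and 1 to 11 for top against middle leaves, 8 to 28, 0 to 8 and 1 to 5 for R3 against R1 in bottom, middle and top leaves, and 0 for the interaction. Taking the 73 members of at least 5 CPM left 25 and 31 calls for top against bottom leaves at R1 and R3. It left 2 and 16 for middle against bottom, 10 and 4 for top against middle, and 13 for the stages in bottom leaves. These counts are lower since fewer members were counted. Counting the 155 members at 1 CPM without any 1 position or stage, an alternative chosen after seeing the data, left 4 for top against middle at R3. A limit of 400 bases, which leaves out 45 members, left 43 for top against bottom at R3. It left 5 and 17 for middle against bottom, and 15 for top against middle at R1. A fit of the groups compared alone, with fewer libraries, gave 17 for middle against bottom at R3, 36 and 0 for top against middle, and 3, 1 and 1 for the stages in bottom, middle and top leaves. Library size alone gave 16 for middle against bottom at R1. It gave 0 and 5 for R3 against R1 in middle and top leaves. DESeq2 gave 20 for middle against bottom at R1, 1 for the interaction, and 7 and 6 for R3 against R1 in middle and top leaves. Without the filter, 4 were called for top against middle at R3 and 0 for the stages in middle leaves; a 2-fold minimum also gave 0 there. For the settings beyond fewer members or libraries, the cause was not tested. All counts in this section are of members alone. The share over all genes in the same settings is not given, so a change in a count is not shown to be particular to the members.

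With the replicate number as a block, the counts were 68 and 69 for top against bottom leaves and 11 and 28 for middle against bottom, and no count moved by more than 1.5 times. A block within each stage gave 71 and 69, and no value for R3 against R1, since its blocks lie within a stage. Of the alternatives for single named values, 1782 stayed on the same side of the threshold, 300 lost the call and 0 changed direction. Depth limits the weak members: several groups near 0 rest on under 20 counts.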
